A study of Mus musculus with 33 samples.

Results

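The genes described are 7 members of the voltage-gated sodium channel family in mouse: the alpha subunit genes Scn7a, Scn8a, Scn3a and Scn1a, and the beta subunit genes Scn2b, Scn3b and Scn4b. They were found by gene symbol among the 47729 genes of the count tables, and all 7 were found. Of these, 6 passed the filter on low counts and Scn4b did not. They were chosen by their measured counts in these same libraries and 11 groups, so the levels and differences of the 7 genes are given as a description and carry no test.

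The cells were retinal progenitor cells from embryonic day 14 retina of C57BL/6J mice, and total RNA was sequenced in bulk. At day 0 they were untreated, cone primed with COCO protein (a secreted inhibitor of the BMP, TGF-beta and Wnt pathways) or rod primed with taurine and retinoic acid. At days 5, 12, 21 and 35 they were cone induced with COCO protein or rod induced with taurine and retinoic acid. Each of the 11 groups had 3 libraries. The labels do not say whether libraries of a group came from separate cultures, so p-values measure the spread between these libraries, which may be technical. All groups come from the same strain and starting tissue, and no untreated cells were sampled after day 0. In bulk RNA, fewer cells of a type and less RNA per cell cannot be told apart.

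A sodium channel alpha subunit forms the pore and carries the voltage sensors, and its opening starts the action potential of neurons. Beta subunits are single-span membrane proteins that adjust the gating and placement of the alpha subunits and also act in cell adhesion. Scn7a encodes an atypical alpha subunit, Nax, which is known as a sensor of sodium level in glia of the brain and in Schwann cells and is not a classical voltage-gated channel. In the retina, spiking sodium currents are best known from ganglion cells and some amacrine cells.

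Scn7a, Scn1a and Scn3a lie in 1 cluster of alpha genes on chromosome 2 of GRCm38. The cluster runs from 65457118 to 66784914, a span of 1.33 Mb, in the order Scn3a, Scn2a, Csrnp3, Galnt3, Ttc21b, Scn1a, Scn9a, Scn7a. Scn7a (ENSMUSG00000034810) occupies 66673425 to 66784914 on the minus strand, and a gap of 38.5 kb separates it from Scn9a. Scn2b and Scn4b are neighbours on chromosome 9 with a gap of 8.32 kb, Scn3b is elsewhere on chromosome 9, and Scn8a is on chromosome 15.

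Scn7a and its 2 nearest alpha genes differed in how far their levels moved from primed cells by day 35. For these 3 neighbours the 250 bases before the RefSeq start (table of build GRCm38.p6) are shown. They are written 5′ to 3′ on the minus strand, and capitals mark CpG dinucleotides, the sites of DNA methylation. Scn7a spans chr2:66784911-66785160, Scn9a chr2:66634963-66635212 and Scn1a chr2:66440838-66441087.
Scn7a: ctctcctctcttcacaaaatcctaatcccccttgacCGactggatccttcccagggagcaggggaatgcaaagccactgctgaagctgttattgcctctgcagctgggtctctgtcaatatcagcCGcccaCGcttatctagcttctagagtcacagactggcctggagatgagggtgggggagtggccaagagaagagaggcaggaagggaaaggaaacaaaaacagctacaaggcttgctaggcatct
Scn9a: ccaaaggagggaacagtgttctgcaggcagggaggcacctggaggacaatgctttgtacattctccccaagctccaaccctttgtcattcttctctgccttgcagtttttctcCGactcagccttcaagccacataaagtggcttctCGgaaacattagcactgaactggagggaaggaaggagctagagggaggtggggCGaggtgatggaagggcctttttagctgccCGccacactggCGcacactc
Scn1a: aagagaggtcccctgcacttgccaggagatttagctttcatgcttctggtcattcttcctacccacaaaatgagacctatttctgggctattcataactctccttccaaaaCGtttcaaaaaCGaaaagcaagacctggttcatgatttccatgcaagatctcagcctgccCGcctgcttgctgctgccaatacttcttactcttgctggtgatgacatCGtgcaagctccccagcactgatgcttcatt
The Scn7a window held 3 CpG dinucleotides, the Scn9a window 5 and the Scn1a window 4. The ratio of observed to expected CpG was 0.170 for Scn7a, 0.271 for Scn9a and 0.309 for Scn1a, beside a median of 0.374 over 32851 promoters in the table. The first of the 2 listed Scn8a promoters held 30 CpG dinucleotides at a ratio of 1.05. Of the 7 genes, 5 had a promoter in the table.

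Both strands of each member promoter were searched for 6 sets of letters, and the share of all promoters with a match is given with each. AGGTCA, the core read by retinoic acid receptors and other nuclear receptors, occurred in 14.0% of promoters, and of the member windows only the second Scn8a promoter held it. Its paired form, the retinoic acid receptor direct repeat, occurred in 0.00913% and in none of the member windows. The Scn7a window held 1 GC box (GGGCGG, in 32.7% of promoters) and 1 E-box (CAGCTG, in 13.0%). TATAAA (12.4%) and TTCAGCACC, the left part of the RE1 element (0.301%), were in none of the member windows. A match is a match of letters only.

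Libraries held 7511837 to 19166442 counts in genes (median 12985662), and 18150 genes were tested by edgeR's quasi-likelihood test. For genes other than the 7, a gene is said to pass the threshold where its p, adjusted over all these genes by the Benjamini-Hochberg method, is under 0.05. Levels are in CPM, counts relative to the library total as scaled by TMM. A library with 0 counts allows up to 3, which is 0.174 CPM in the deepest and 0.407 CPM in the shallowest library. This floor of 3 is used for folds, and floors and intervals cover counting error only. The summed level of 8 retinal progenitor genes, the labelled starting cell type, was 1143 ± 50.5 CPM in untreated cells, 856 ± 84.1 in cone day 35 and 1195 ± 233 in rod day 35 (SD, n = 3). The list was not uniform: Pax6 held 564 CPM of the untreated sum, while Hes5 had a mean of 46.3 CPM in untreated cells, 0.395 in cone day 35 and 0.15 in rod day 35. Photoreceptor markers, 8 genes, summed to 718 to 972 CPM in untreated libraries but to 9.56 to 29.4 CPM at cone day 35 and 4.53 to 9.77 CPM at rod day 35, and Arr3 was at 0 in rod days 21 and 35. The library labelled rod day 12 replicate 2 stood apart from the other 2 of its group, with 832 CPM of photoreceptor markers against 49.1 and 103. Its neuronal markers summed to 1202 CPM against 519 and 635. The day 12 differences between cone and rod are given for the 6 tested genes with and without it.

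Scn7a was near 0 in the starting cells. Untreated libraries had 0.384, 0.133 and 0.0679 CPM, from 3, 2 and 1 counts. Cone primed libraries had 0.126, 0.162 and 0 CPM, from 1, 2 and 0 counts, and all 3 rod primed libraries had 0. All 9 libraries of day 0 were thus at or under 3 counts, and no fold is drawn between them.

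In the rod cultures Scn7a stood at 4.83, 2.93 and 1.81 CPM at day 5. At day 12 it was at 270, 40.7 and 137 CPM, and at day 21 at 252, 125 and 124 CPM. At day 35 it reached 423, 215 and 360 CPM. No rod library of day 12 or later overlapped any library of day 5, while days 12, 21 and 35 overlapped their neighbours in order. Against rod primed cells, taken at the floor of 3 counts per library, the mean on day 5 was at least 9.78-fold higher. It was at least 458-fold higher on day 12, 511-fold on day 21 and 1021-fold on day 35.

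In the cone cultures Scn7a stood at 1.60, 1.76 and 0.581 CPM at day 5. The level was 27.8, 32.8 and 27.4 CPM at day 12 and 60.5, 58.7 and 37.2 CPM at day 21. At day 35 it was 66.1, 163 and 121 CPM. Each later cone day lay above the one before it without overlap. The ratio to the 3 counts of cone primed cells was 12.9 on day 5 (95% exact counting interval 4.22 to 64.2), 294 on day 12 (100.3 to 1427), 500.2 on day 21 (171 to 2428) and 1160 on day 35 (397 to 5630).

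Scn7a was lower in cone than in rod cultures of the same day from day 5 on, with no overlap between the 3 cone and 3 rod libraries at any of these days. The log2 fold change, cone minus rod, was -1.22 ± 0.68 (SE) at day 5 and -2.35 ± 0.46 at day 12. It was -1.68 ± 0.45 for day 21 and -1.51 ± 0.44 for day 35. At day 12 the difference was -2.80 without rod day 12 replicate 2 and -1.60 without rod day 12 replicate 1. Leaving out single libraries gave -1.86 to -1.26 at day 21, with the smallest difference without rod day 21 replicate 1. At day 35 it gave -1.85 to -1.23, the smallest without cone day 35 replicate 1. In the order of group means, rod days 35, 21 and 12 and cone day 35 led, each overlapping the next of these 4. Cone day 35 lay above cone day 21 without overlap. Cone days 21 and 12, then rod and cone day 5, followed, each without overlap with the next, and the day 0 groups came last.

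**Figure D1:**
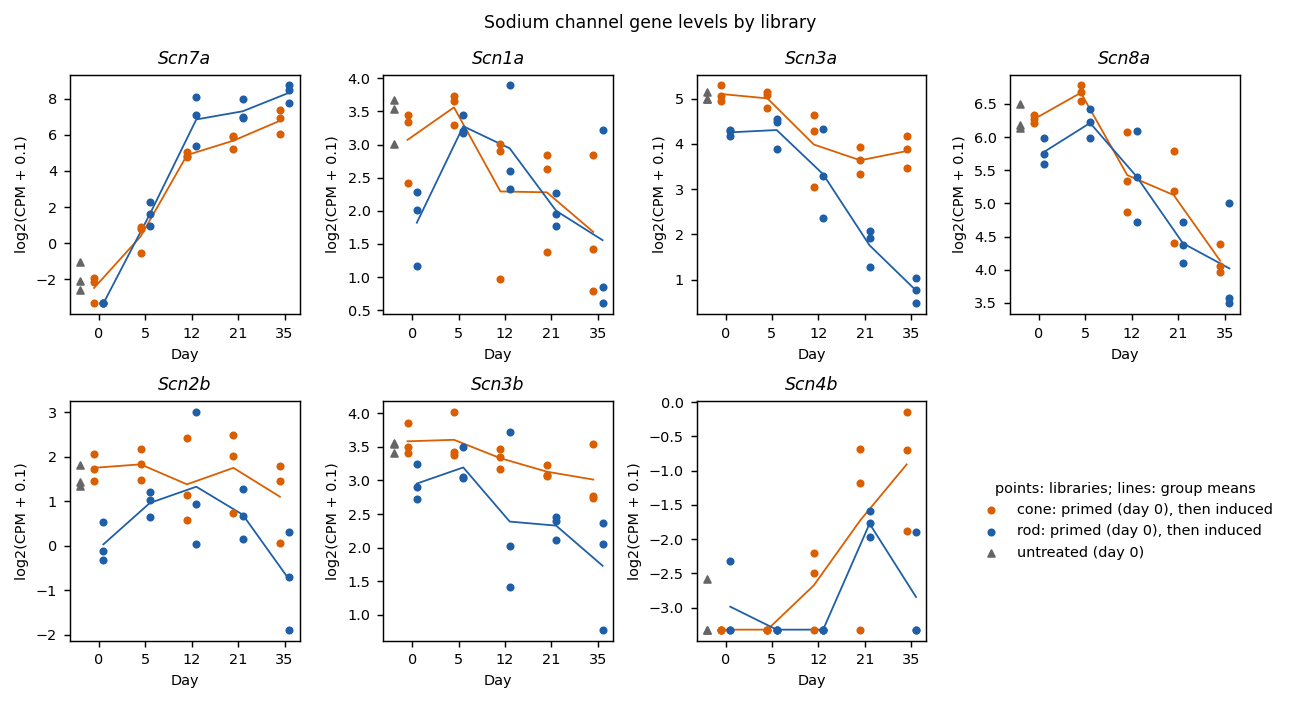
Level of each of the 7 genes in each of the 33 libraries, on a log2 scale of CPM plus 0.1, against day of culture at even spacing. Points are libraries and lines join the means of log values of the 3 libraries of a group. Scn7a goes from 0 in rod primed cells to 215 to 423 CPM in rod cells at day 35, while Scn3a is at 1.29 to 1.94 CPM there.

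Scn8a encodes the alpha subunit that is dense at axon initial segments and nodes of mature neurons. It was the alpha gene with the highest level in the starting cells, at 70.0, 72.6 and 89.9 CPM in untreated libraries. Cone primed cells had 73.7, 77.3 and 80.7 CPM and rod primed cells 48.1, 63.0 and 53.5 CPM, so that the rod primed libraries were the lowest of day 0 without overlap. At day 5 the cone libraries were at 93.0, 103 and 110 CPM and the rod libraries at 63.0, 74.7 and 86.1 CPM, and cone day 5 was the highest group of all 11 without overlap with the next.

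Scn8a was lower in the late cultures of both kinds. At day 12 the cone libraries had 40.2, 67.4 and 29.1 CPM and the rod libraries 26.3, 68.4 and 42.0 CPM. At day 21 the cone libraries had 21.0, 55.0 and 36.5 CPM and the rod libraries 17.1, 26.3 and 20.5 CPM. By day 35 the cone libraries were at 15.5, 20.8 and 16.5 CPM and the rod libraries at 31.9, 11.2 and 11.7 CPM. Against primed cells the day 35 difference was -2.13 ± 0.36 on the log2 scale in cone cultures and -1.60 ± 0.36 in rod cultures, with no overlap in either. In rod cultures it was -2.29 without rod day 35 replicate 1, the library at 31.9 CPM. Cone and rod differed by -0.04 ± 0.36 at day 35 and their libraries overlapped.

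Scn3a encodes the alpha subunit best known from the embryonic brain. It stood at 35.1, 31.7 and 31.6 CPM in untreated cells, 39.0, 33.2 and 30.9 CPM in cone primed cells and 19.5, 18.0 and 19.4 CPM in rod primed cells. Rod primed libraries again lay below the other day 0 libraries without overlap. At day 5 the cone libraries had 35.3, 33.6 and 27.5 CPM and the rod libraries 14.6, 22.2 and 23.5 CPM.

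From day 12 on Scn3a was lower in cone cultures, at 19.2, 24.6 and 8.20 CPM at day 12, 9.97, 12.3 and 15.2 CPM at day 21 and 10.9, 17.9 and 14.7 CPM at day 35. Rod cultures had 5.07, 20.0 and 9.66 CPM at day 12, where the highest value is again rod day 12 replicate 2. They had 2.32, 3.71 and 4.11 CPM at day 21 and 1.61, 1.94 and 1.29 CPM at day 35. Each of these 2 rod groups lay below every other group without overlap.

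Against primed cells Scn3a differed at day 35 by -1.24 ± 0.34 in cone cultures and by -3.56 ± 0.41 in rod cultures on the log2 scale. The difference between cone and rod was 0.58 ± 0.34 at day 12, where libraries overlapped, 1.89 ± 0.37 at day 21 and 3.17 ± 0.41 at day 35, where they did not. At cone day 12 the difference from primed cells was -0.99, and -0.64 without cone day 12 replicate 3.

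Scn1a encodes an alpha subunit best known from inhibitory neurons, and its levels were lower and more scattered. Untreated libraries had 12.7, 11.5 and 7.95 CPM, cone primed libraries 10.1, 5.25 and 10.8 CPM and rod primed libraries 4.75, 3.93 and 2.15 CPM. The rod primed group had the lowest mean of all 11 groups and overlapped neither other group of day 0. At day 5 there were 13.2, 12.5 and 9.71 CPM in cone and 9.10, 10.8 and 8.96 CPM in rod libraries. At day 12 the cone libraries had 7.93, 7.38 and 1.86 CPM and the rod libraries 4.93, 14.7 and 5.98 CPM, the highest being rod day 12 replicate 2.

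At day 21 Scn1a was at 2.49, 6.08 and 7.03 CPM in cone and 3.78, 4.71 and 3.33 CPM in rod libraries, and at day 35 at 1.62, 7.04 and 2.58 CPM and at 1.70, 9.22 and 1.42 CPM. In both day 35 groups the library with replicate number 2 was the highest. All 10 pairs of neighbouring groups in the order of its means overlapped. At day 35 the cone minus rod difference of -0.12 ± 0.60 was -0.96 without cone day 35 replicate 2 and 1.27 without rod day 35 replicate 2. The difference from primed cells was -1.21 ± 0.60 in cone cultures and 0.20 ± 0.62 in rod cultures, and without the library of replicate number 2 at day 35 these were -2.04 and -1.20.

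Scn3b encodes a beta subunit that binds alpha subunits without a covalent bond, and it was the beta gene with the highest level per length in the starting cells. Untreated libraries had 10.5, 11.6 and 11.7 CPM, cone primed libraries 11.2, 14.3 and 10.5 CPM and rod primed libraries 6.51, 7.35 and 9.34 CPM, lowest of day 0 without overlap. Cone cultures had 16.2, 10.6 and 10.3 CPM at day 5 and 6.57, 11.5 and 6.70 CPM at day 35. Rod cultures had 8.09, 8.15 and 11.2 CPM at day 5 and 1.61, 4.04 and 5.04 CPM at day 35.

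At day 12 Scn3b was at 8.86, 11.0 and 10.1 CPM in cone libraries and at 2.57, 13.1 and 3.97 CPM in rod libraries, and at day 21 at 8.40, 9.33 and 8.29 CPM and at 4.25, 5.17 and 5.41 CPM. Rod day 12 replicate 2 was the single rod library of that day above the cone libraries. The rod day 35 difference from primed cells was -1.11 ± 0.40, with no overlap, and the cone day 35 difference was -0.54 ± 0.38, with overlap. Cone minus rod was 1.19 ± 0.40 at day 35. Leaving out single libraries gave 0.84 to 1.52 for the latter. All 10 neighbouring pairs in the order of the Scn3b group means overlapped.

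Scn2b encodes a beta subunit that is joined to the alpha subunit by a disulfide bond. Untreated libraries had 2.43, 3.40 and 2.58 CPM, cone primed 2.64, 3.23 and 4.09 CPM and rod primed 0.814, 0.705 and 1.35 CPM, again the lowest of day 0 without overlap. Cone cultures had 3.47, 4.44 and 2.67 CPM at day 5, 2.10, 5.28 and 1.39 CPM at day 12, 1.57, 5.56 and 3.92 CPM at day 21 and 0.939, 3.35 and 2.66 CPM at day 35. The cone libraries overlapped the cone primed ones at each of these days. All 10 neighbouring pairs in the order of the Scn2b group means overlapped.

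Rod cultures had Scn2b at 1.46, 2.22 and 1.94 CPM at day 5, 0.928, 7.98 and 1.80 CPM at day 12, 1.00, 2.32 and 1.5 CPM at day 21 and 0.170, 1.13 and 0.516 CPM at day 35. The value of 7.98 CPM, from rod day 12 replicate 2, was the highest of all 33 libraries. Cone minus rod was 1.22 at day 21, and 0.80 without cone day 21 replicate 2. At day 35 it was 1.92 ± 0.70, with overlap, and the rod libraries of that day held 2, 14 and 8 counts.

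Scn4b encodes the other disulfide-linked beta subunit. It had 0 counts in 20 of 33 libraries. The highest were 2, 6 and 10 counts at cone day 35 (0.171, 0.515 and 0.807 CPM), 4, 4 and 0 at cone day 21 and 2, 3 and 3 at rod day 21. Cone day 35 was at least 1.60-fold above cone primed cells at the floor. The ratio of cone to rod at day 35 was 9.97 with a 95% exact counting interval of 2.39 to 88.6, from 18 against 2 counts. Elsewhere the gene was not detectable above 3 counts per library at this depth except at cone day 21.

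**Figure D2:**
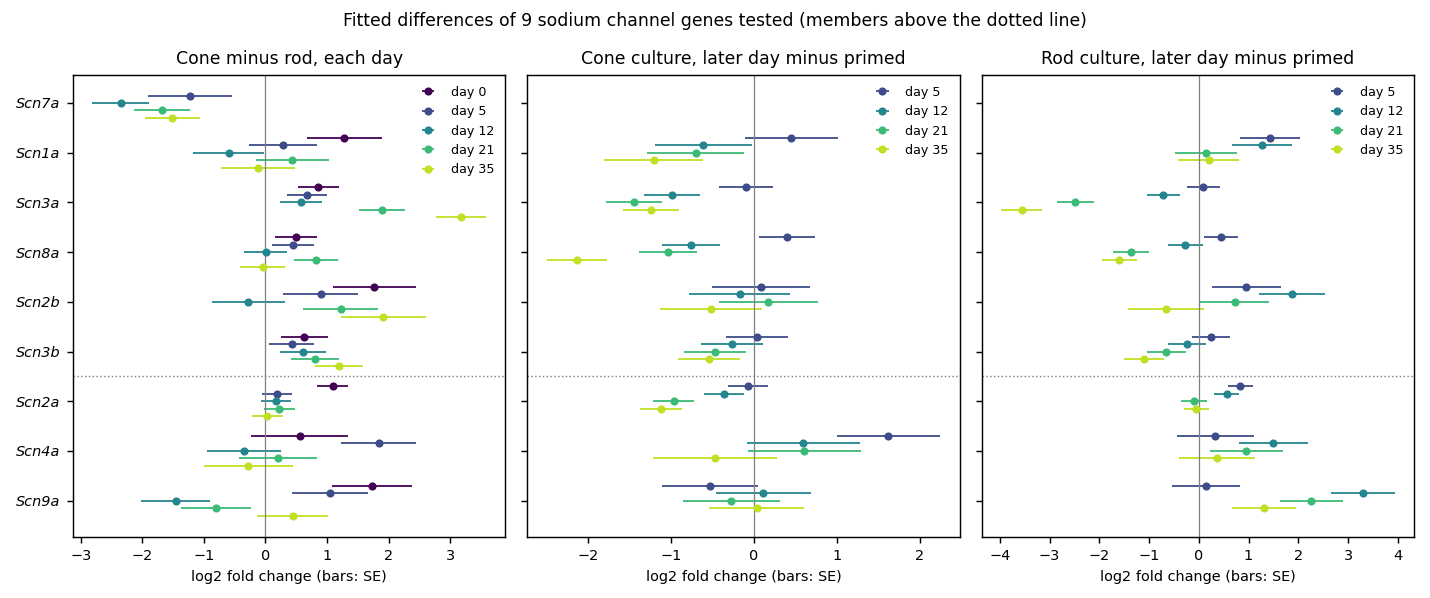
Fitted log2 fold changes with SE bars for 9 of the sodium channel genes tested, by day, for cone minus rod, cone later day minus cone primed, and rod later day minus rod primed. Scn7a is drawn only for cone minus rod from day 5, because at day 0 it is at or under 3 counts. Scn3a reaches 3.17 for cone minus rod at day 35, and Scn7a lies below 0 at each day drawn.

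The rod day 12 differences of 5 of the genes depended on rod day 12 replicate 2. Against rod primed cells, Scn2b differed by 1.87 ± 0.67 on the log2 scale with this library and by 0.45 ± 0.64 without it, and Scn1a by 1.27 ± 0.60 and 0.58 ± 0.63. Scn3a differed by -0.71 ± 0.34 with it and by -1.40 ± 0.33 without it, Scn3b by -0.24 ± 0.38 and -1.29 ± 0.33, and Scn8a by -0.27 ± 0.34 and -0.72 ± 0.37. Without it, 3 of these 5 genes thus lay further below primed cells and the other two nearer to them.

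Cone minus rod at day 12 moved with it as well. Scn3a went from 0.58 ± 0.34 with the library to 1.23 ± 0.33 without it, Scn3b from 0.61 ± 0.38 to 1.61 ± 0.33 and Scn8a from 0.00 ± 0.34 to 0.41 ± 0.36. Scn2b went from -0.28 ± 0.59 to 1.10 ± 0.59 and Scn1a from -0.60 ± 0.57 to 0.05 ± 0.61, so that the sign of both turned. In cone cultures the Scn8a difference from primed cells was -0.76 at day 12 and -1.16 without cone day 12 replicate 2.

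The day 0 differences of rod primed from untreated cells were of 1 direction. All 6 tested genes had lower values in the 3 rod primed libraries than in the 3 untreated libraries without overlap, as had 16.1% of all genes tested. Nothing is read from this because the genes were chosen with the counts of these libraries known. Examples were Scn2b at -1.53 ± 0.68, Scn3a at -0.79 ± 0.33 and Scn8a at -0.50 ± 0.34. For Scn7a both groups are at or under the floor. Cone primed cells and untreated cells overlapped for each of the 7 genes, where 5.17% of all genes tested did not overlap.

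Per length, the makeup of the alpha genes turned over. On the scale of CPM per kb of annotated exon, the 10 alpha genes summed to 11.0 ± 0.69 in untreated cells, 21.4 ± 8.13 at cone day 35 and 48.8 ± 14.9 at rod day 35. Without Scn7a the sums were 11.0 ± 0.68, 5.48 ± 1.60 and 3.45 ± 0.93. In primed cells the sum without Scn7a was 11.2 ± 0.26 for cone and 6.57 ± 0.44 for rod. On day 5 it was 12.8 ± 0.36 in cone and 9.24 ± 1.18 in rod cultures. The sum without Scn7a ran from 10.2 to 11.6 in untreated libraries and from 2.59 to 4.44 in rod day 35 libraries.

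Scn8a made up 44.7% ± 6.4 of the alpha sum in untreated cells, Scn3a 23.9% ± 1.1, Scn2a 17.2% ± 1.8, Scn1a 8.75% ± 2.1 and Scn7a 0.237% ± 0.19. At rod day 35 Scn7a made up 92.5% ± 2.6, Scn8a 2.29% ± 0.91, Scn1a 1.01% ± 1.3 and Scn3a 0.295% ± 0.16. At cone day 35 the shares were 73.4% ± 4.5 for Scn7a, 5.61% ± 1.6 for Scn8a, 5.68% ± 0.90 for Scn3a and 1.44% ± 0.61 for Scn1a. At rod day 12 the Scn7a share ran from 35.5% to 84.2%. These are shares of RNA and say nothing of protein.

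**Figure D3:**
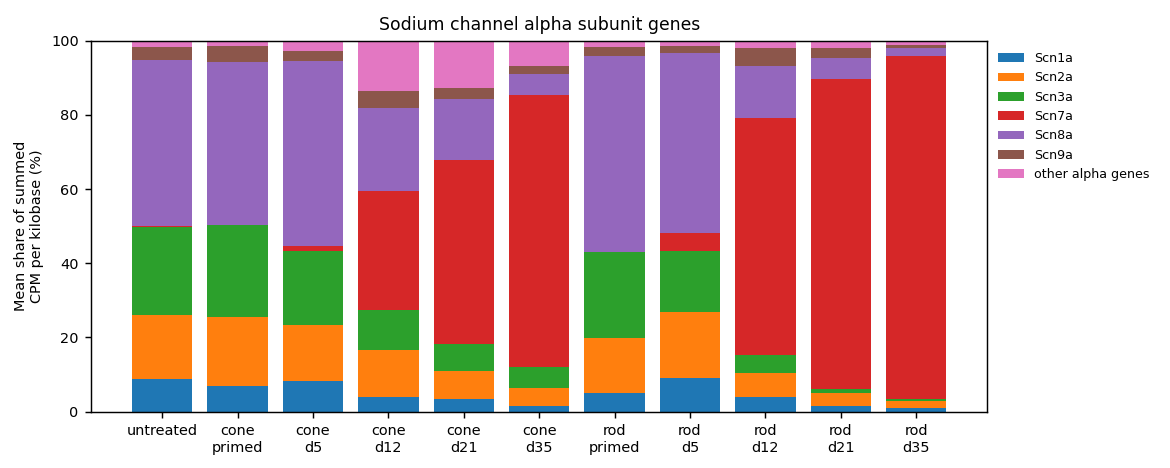
Stacked bars of each gene's share, in percent of the summed CPM per kb of exon, of the 10 alpha genes, as the mean of 3 libraries a group. The Scn7a share grows from 0 in rod primed cells to 92.5% at rod day 35. The Scn8a share is 44.7% in untreated cells, 52.9% in rod primed cells and 2.29% at rod day 35.

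The family has 7 further genes on the lists used, of which 5 were tested, and the differences of those named below carry tests by edgeR's quasi-likelihood test with Benjamini-Hochberg adjustment over all genes.

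Scn9a, the alpha subunit of nociceptive sensory neurons, was at 1.63, 0.504 and 3.59 CPM in rod primed cells and at 34.4, 6.55 and 16.9 CPM at rod day 12 (log2 3.30 ± 0.64, adjusted p 0.000174 by edgeR). The difference was 2.26 ± 0.64 at rod day 21 (adjusted p 0.00439) and did not pass at rod day 35 (1.32 ± 0.65, adjusted p 0.0860) or on any cone day. As for Scn7a, rod day 12 replicate 2 was the lowest library of its group. Scn9a shares 360 exon bases with the antisense gene Gm13629, and reads of the pair cannot be told apart without a known strand setting.

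Scn2a, the alpha subunit of early axons, was lower in rod primed than in untreated cells (log2 -0.95 ± 0.25, adjusted p 0.0150 by edgeR) and fell by cone day 35 (-1.12 ± 0.25, adjusted p 0.000400). At rod day 35 it differed from primed cells by -0.05 ± 0.25 (adjusted p 0.877). The primed cells differed, with Scn2a means of 26.5 CPM in cone primed and 12.4 CPM in rod primed cells. At day 35 the means were 12.2 CPM in cone and 12.0 CPM in rod cultures (cone minus rod 0.03 ± 0.25, adjusted p 0.966 by edgeR). Leaving out single libraries gave adjusted p up to 0.0853 for its difference between rod primed and untreated cells. Scn4a, the skeletal muscle alpha subunit, passed in none of the 15 comparisons. Scn10a and Scn11a, known from sensory neurons, were not tested: Scn10a was at 0 in 10 of the 11 groups and Scn11a had group means up to 0.215 CPM.

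The genes between the channel genes of the chromosome 2 cluster went different ways too. Galnt3, an enzyme of O-linked glycosylation, rose to cone day 35 (log2 2.66 ± 0.58, adjusted p 0.000303 by edgeR) and to rod day 35 (2.37 ± 0.40, adjusted p 1.44e-05), and was lower in day 35 cone than rod cells (-2.87 ± 0.41, adjusted p 2.24e-05). Its mean was 0.318 CPM in cone primed cells, near the floor of 3 counts, and 1.97 CPM at cone day 35. In rod cultures its mean went from 2.79 CPM in primed cells to 14.5 CPM at day 35. By day 35 Csrnp3 fell by 3.74 on the log2 scale in cone (adjusted p 1.10e-10) and fell by 2.81 in rod cultures (adjusted p 1.19e-08). Ttc21b, a protein of ciliary transport, fell by 0.50 in cone cultures (adjusted p 0.000818) and differed by -0.19 in rod cultures (adjusted p 0.172). Of the 5 genes of the span that are not among the 7, Galnt3 was the one that rose in both cultures at day 35.

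The levels of the genes over the 33 libraries were compared as a description; libraries share groups, days and culture conditions. Over log2 CPM, Scn7a had r = -0.78 with Scn8a, -0.77 with Scn3a, -0.61 with Scn3b, -0.42 with Scn1a and -0.24 with Scn2b. Scn3a had r = 0.83 with Scn3b and 0.81 with Scn8a. After the group means were removed, r was -0.43 for Scn7a with Scn3a, 0.66 for Scn7a with Scn9a and 0.62 for Scn3a with Scn8a.

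Among the genes most like Scn7a by r of log2 CPM over the 33 libraries were P3h2 (0.98) and Nfkbiz (0.98). After the group means were removed, r with Scn7a was 0.76 for P3h2 and 0.38 for Nfkbiz. By r over the 33 libraries, the genes most like Scn8a were Pclo (0.96), a presynaptic scaffold protein, Tspoap1 (0.96) and Casz1 (0.95). Those for Scn3a were Crtac1 (0.96), Plekha6 (0.96) and Runx1t1 (0.94), and those for Scn1a were Slitrk4 (0.87), the calcium channel subunit Cacnb4 (0.83) and Stxbp5l (0.83). Scn2b was most like Gpr158 (0.88), Vsnl1 (0.85) and the synuclein Sncb (0.85), and Scn3b most like Rgs17 (0.87), Bcl11b (0.87) and Ank1 (0.84).

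Markers of several cell types moved with these levels. The summed level of 8 neuronal genes was 2031 to 2558 CPM in untreated libraries, 213 to 400.5 CPM at cone day 35 and 195 to 254 CPM at rod day 35, and 8 of 8 fell between primed cells and day 35 in both cultures by edgeR. Of all genes tested, 31.1% rose and 26.5% fell over the same interval in cone cultures, and 29.4% rose and 26.2% fell in rod cultures. At rod day 12 replicate 2 held the most neuronal RNA and, of the 3 libraries, the most Scn1a, Scn3a, Scn8a, Scn2b and Scn3b and the least Scn7a. Muller glia genes, 7 in all, summed to 440.3 to 545 CPM in untreated cells. The sums were 462 to 589 CPM in cone primed and 1123 to 1423 CPM in rod primed cells. They were 4057 to 5035 CPM at cone day 35 and 4937 to 7587 CPM at rod day 35. Of these genes, 6 rose and 0 fell from primed cells to day 35 in cone cultures, and 5 rose and 1 fell in rod cultures. The list was uneven: Dkk3 alone had a mean of 2266 CPM at cone day 35 and 3675 CPM at rod day 35. Glul had a mean of 139 CPM in untreated, 148 CPM in cone primed and 209 CPM in rod primed cells. Its mean was 165 CPM at cone day 35 and 154 CPM at rod day 35, the latter below rod primed cells. Astrocyte genes summed to 2.80 to 7.40 CPM in untreated cells, 260 to 386 CPM at cone day 35 and 334 to 409 CPM at rod day 35, and 5 of 5 rose in both.

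The Schwann cell and neural crest glia list summed to 10.9 to 14.3 CPM in untreated cells, 76.6 to 86.7 CPM at cone day 35 and 186 to 258 CPM at rod day 35. Of its defining genes, Sox10 and Foxd3 were at 0 at rod day 35. Of the list, Cdh19 (mean 89.0 CPM) and Ngfr (mean 132 CPM) held nearly all of the rod day 35 sum, and both are named after their values were seen. Like Scn7a, both were lower in day 35 cone than rod cells, Cdh19 by -1.61 ± 0.46 (adjusted p 0.0193 by edgeR) and Ngfr by -1.41 ± 0.24 (adjusted p 0.000236). Mesenchyme genes, 8 in all, summed to 536 to 3726 CPM at cone day 35 and 237 to 751 CPM at rod day 35, with overlap. Microglia genes, 6 in all, summed to 18.3 to 61.0 CPM at cone day 35 and 1.10 to 2.51 CPM at rod day 35. The part of these cell types in the sodium channel levels was not tested.

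**Figure D4:**
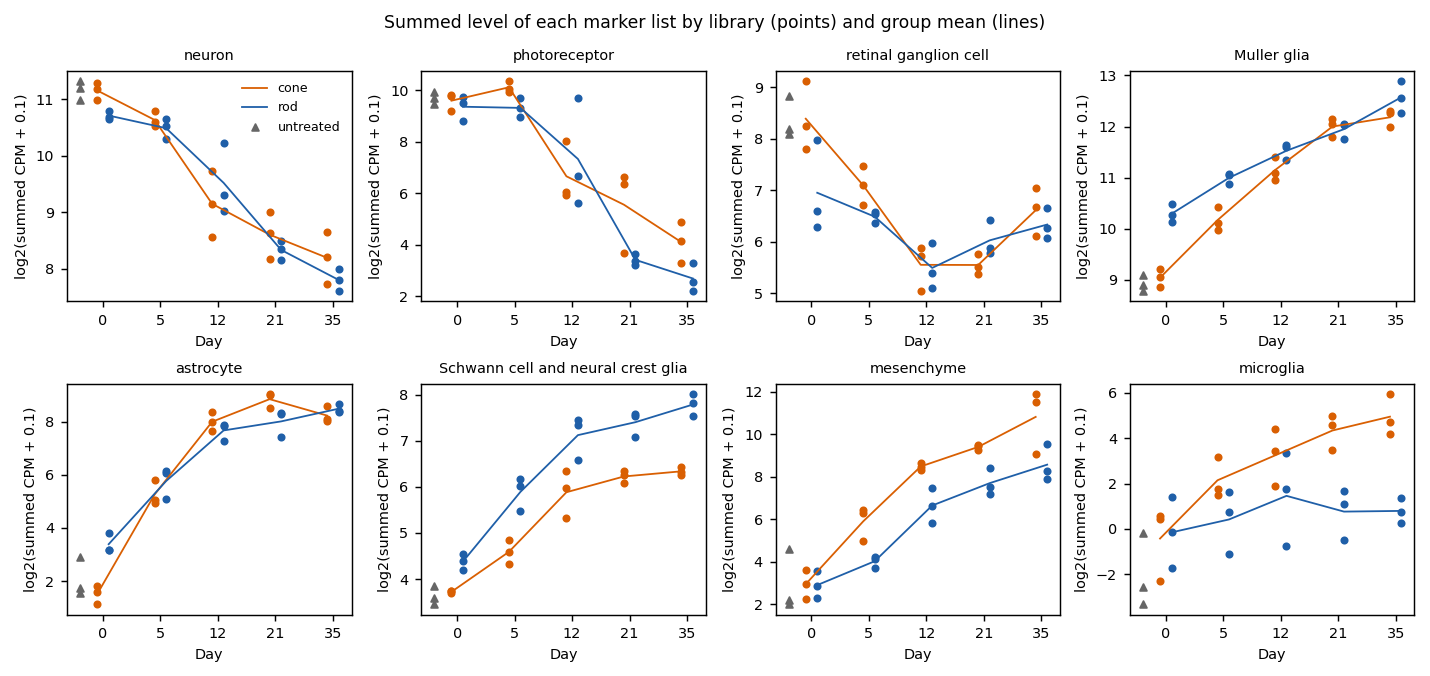
Summed CPM of 8 marker lists on a log2 scale after adding 0.1 CPM, against day of culture at even spacing, for cone and rod cultures and untreated cells. Points are libraries and lines join group means of log values. Neuronal and photoreceptor sums are lower at day 35 than at day 0 in both cultures, and Muller glia and astrocyte sums are higher.

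A sodium channel works beside other ion channels, the pump and anchoring proteins, and 64 such genes were listed, of which 61 were tested by edgeR. They are described by counts of genes past an adjusted p of 0.05, and where a gene rose or fell by a value, this is its log2 fold change from primed cells to day 35. Between primed cells and day 35, 14 rose and 29 fell in cone cultures, 43 of 61 where 57.7% of all genes passed. In rod cultures 16 rose and 34 fell, 50 of 61 where 55.6% passed. The median log2 fold changes were -0.78 and -1.33 beside 0.03 and 0.04 over all genes tested. Between cone and rod cells at day 35, 17 were higher in cone and 3 lower (12.3% of all genes passed) at a median of 0.72, beside 0.02 over all genes. Rod primed against untreated cells gave 1 higher and 14 lower (10.3% of all genes passed) at a median of -0.69, beside 0.00 over all genes. In cone primed against untreated cells 0 were called by edgeR (0% of all genes), 0 had an unadjusted p under 0.05 and 0 were called by DESeq2, while over all genes edgeR called 0, 200 had an unadjusted p under 0.05 and DESeq2 called 0.

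At the other days, 15 of the 61 companion genes passed between cone and rod on day 0 (7.27% of all genes), 4 on day 5 (9.28%), 6 on day 12 (10.1%) and 15 on day 21 (9.00%). Against cone primed cells, 18 passed on day 5 (22.3%), 29 on day 12 (48.4%) and 39 on day 21 (52.6%). Against rod primed cells, 9 passed on day 5 (17.5%), 23 on day 12 (42.4%) and 43 on day 21 (50.8%). The early counts moved when single libraries were left out, which also leaves fewer libraries in a group. Why they moved was not tested. For rod primed against untreated cells the 15 became 7 when untreated replicate 2 was left out. With rod primed replicate 1 left out they became 9, and with replicate 3 left out 6. Between cone and rod on day 0 the 15 became 8 when cone primed replicate 3 was left out. Here too rod primed replicates 1 and 3 mattered, with counts of 9 and 5 in their absence. On day 5 the 4 became 2 without cone replicate 1, rod replicate 1 or rod replicate 2. On day 12 the 6 became 3 without cone replicate 1, and against cone primed cells on day 5 the 18 became 9 without cone primed replicate 2.

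Most sodium leak channel genes fell. At rod day 35, 4 of 4 tested were lower than in primed cells, as were 26.2% of all genes. Among them were Fam155a (log2 -3.70 ± 0.48, adjusted p 2.89e-07 by edgeR) and Nalcn, the pore of the leak channel (-3.04 ± 0.44, adjusted p 1.84e-06). At cone day 35, 3 of 4 fell (26.5% of all genes), led by Unc79 (-3.42 ± 0.38, adjusted p 1.55e-08) and Unc80 (-2.74 ± 0.53, adjusted p 8.04e-05). Nalcn was higher in day 35 cone than rod cells by 3.29 ± 0.44 (adjusted p 1.01e-05), the direction of Scn3a.

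Of 16 voltage-gated potassium channel genes, 4 rose and 9 fell at cone day 35, beside 31.1% and 26.5% of all genes. At rod day 35, 3 rose and 11 fell, beside 29.4% and 26.2%. Kcnh1 rose in cone cultures by 3.63 ± 0.41 (adjusted p 1.97e-08 by edgeR) and Kcna1 in rod cultures by 1.79 ± 0.28 (adjusted p 3.99e-06).

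Of 17 voltage-gated calcium channel genes, 4 rose and 7 fell at cone day 35, beside 31.1% and 26.5% of all genes. At rod day 35, 4 rose and 8 fell, beside 29.4% and 26.2%. Cacna1g, a low-threshold pore subunit, rose by 1.77 ± 0.32 in cone cultures (adjusted p 3.28e-05 by edgeR) and by 3.05 ± 0.34 in rod cultures (adjusted p 2.25e-08). Cacna1b, the pore of presynaptic N-type channels, fell by 2.84 in cone cultures (adjusted p 5.24e-09). Cacna2d3 was higher in day 35 cone than rod cells by 3.90 ± 0.40 (adjusted p 2.54e-07).

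Anchoring genes of the axon initial segment and node were mixed. At cone day 35, 2 of 13 were higher and 7 lower, beside 31.1% and 26.5% of all genes. At rod day 35, 4 were higher and 7 lower, beside 29.4% and 26.2%. Cntn1, an adhesion protein of axons and glia, rose by 1.49 ± 0.20 in cone (adjusted p 3.18e-07 by edgeR) and 2.15 ± 0.20 in rod cultures (adjusted p 1.31e-09) and was lower in day 35 cone than rod cells (-1.20 ± 0.19, adjusted p 0.000119). Fgf12, which binds the tail of sodium channel alpha subunits, fell by 2.89 in cone (adjusted p 2.25e-06) and fell by 3.87 in rod cultures (adjusted p 9.65e-07).

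Sodium pump genes, which restore the sodium gradient, went both ways. Over the 6 pump genes, 3 rose and 1 fell in cone cultures by day 35, beside 31.1% and 26.5% of all genes. In rod cultures 3 rose and 2 fell, beside 29.4% and 26.2%.

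Among epithelial and acid-sensing sodium channel genes, 5 of 7 were tested. Asic1, a proton-gated channel, rose from 5.48 ± 1.82 to 43.1 ± 25.0 CPM in cone (log2 2.98 ± 0.48, adjusted p 6.36e-06 by edgeR) and from 4.37 ± 0.74 to 103 ± 28.3 CPM in rod cultures (4.54 ± 0.51, adjusted p 2.55e-08). Asic4 fell by 2.69 in cone (adjusted p 0.00175) and fell by 4.32 in rod cultures (adjusted p 3.95e-05).

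**Figure D5:**
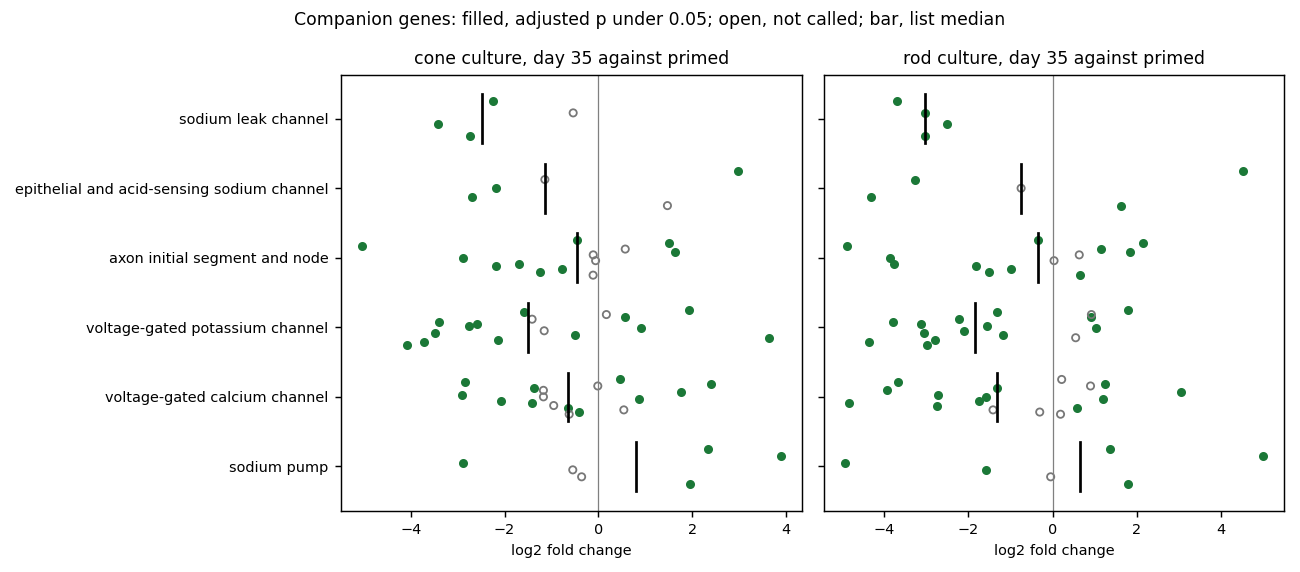
Fitted log2 fold change of each tested companion gene between primed cells and day 35, by list, for cone and rod cultures. Filled points passed an adjusted p of 0.05, open points did not, and bars are list medians. The median lies below 0 for all lists but the sodium pump, at -2.49 for the leak channel list in cone and -3.03 in rod cultures.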

How the data were processed

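Bulk RNA sequencing of total RNA was deposited for 33 libraries in 11 groups of 3, with groups taken from the treatment and day in the labels. The authors deposited 1 table of raw counts per gene for each library. Per the submitters' processing notes, HISAT2, StringTie, HTSeq and build GRCm38 were used; versions, roles and the strand setting are not given in the sources used here. Each deposited count table ends in 5 summary lines, which were kept out of library sizes, and genes held 26.9% to 34.9% of counted reads. Per the file headers, a second table for each library gives TPM, FPKM and coverage. These deposited TPM values were not used for levels, a departure from the plan: across 7586 genes, library deviations of TPM and counts had a correlation of 0.270 to 0.505, and 20.2% of values of at least 50 counts were listed at 0 TPM. The deposited FPKM and coverage signal were not used. Gene names come from these tables, and exon lengths from GENCODE M21 on GRCm38, which holds 47310 of the 47729 genes.

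Genes were filtered by filterByExpr at a minimum count of 10, scaled by TMM and fitted with 1 quasi-likelihood model over all 33 libraries (edgeR 4.0.16, limma 3.58.1, R 4.3.3). Calls were made below 0.05 after Benjamini-Hochberg adjustment over 18150 genes. The common biological coefficient of variation was 0.213. The steps were also run on simulated counts with few changed genes, all in rod day 35. Far more genes passed in these data, so that run does not test the steps at such changes. Ratios from 1 to 3 counts carry exact 95% counting intervals. Descriptions used pandas 2.3.3, scipy 1.17.1 and numpy 2.4.6 in Python 3.11.15, and figures matplotlib 3.10.9. Promoters are those of RefSeq.

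The 7 genes and all lists were chosen with earlier results of these data known. Sodium channel genes are named, and some genes that the rules below or this one would name are not reported here. Of each companion list, up to 2 called genes a direction are named, provided the average log2 CPM reaches 1 and the libraries do not overlap. The 3 genes most alike are named at the same minimum, without provisional symbols (Gm with digits, or Rik at the end). Cdh19, Ngfr, Dkk3 and Glul, and Csrnp3, Galnt3 and Ttc21b by position, fall outside this rule. The gene Fam155b was not found by symbol. The alternatives were RLE scaling, no filter on low counts, a mean of at least 1 CPM, DESeq2 1.42.0, a fit of the compared groups only, a replicate block and leaving out each library in turn.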

Additional observations from a re-analysis of the deposited data

How the results depend on the processing

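Counts of companion genes called moved by over 1.5 times when only the compared groups were fitted: 40 in place of 15 for rod primed against untreated cells, 31 in place of 15 for cone against rod at day 0, 23 in place of 4 at day 5, 2 in place of 6 at day 12, 33 in place of 18 for cone day 5 against primed and 21 in place of 9 for rod day 5 against primed. DESeq2 gave 8 in place of 4 for cone against rod at day 5. The cause was not tested. Leaving out 1 library gave 6 to 13 for rod primed against untreated cells, 5 to 12 for cone against rod at day 0, 2 to 6 at day 5, 3 to 8 at day 12 and 9 to 16 for cone day 5 against primed. The other 162 of 180 such counts stayed within 1.5 times, and no result changed sign past the threshold. Of the 861 values of the other sodium channel genes under alternatives, 833 kept their side of the threshold, 19 gained a call and 9 lost one, among them Scn2a between cone and rod primed cells (adjusted p 0.0545 without cone primed replicate 3) and Scn9a between cone and rod at day 12 (gained, -1.87, adjusted p 0.0356 without rod day 12 replicate 2). Of 1075 values for the 7 genes, 1044 moved by no more than 1 SE and 31 by more. Low counts limit Scn4b, and Scn7a at day 0.

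Replicate numbers are shared between groups. Over 165 pairs of libraries with the same number, the correlation of their deviations from group means ran from -0.26 to 0.51. The median was 0.016, 48 pairs were over 0.1, and 19 of 33 libraries correlated best with their own number. Whether libraries of the same number share a batch was not tested, and the main fit does not use the numbers. With the replicate block, 16 companion genes were called for rod primed against untreated cells and 51 for rod day 35 against primed, in place of 15 and 50. Calls that the block added for sodium channel genes other than the 7 included Scn4a at cone day 5 (1.67, adjusted p 0.0483).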
